A study of Mus musculus with 3 samples.

Results

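The genes described here are 8 transcription factors that pattern the jaw: Hand2, Hand1, Alx1, Alx4, Lhx6, Lhx8, Barx1 and Pitx1. They were taken as a named list, and all 8 were found by identifier among the 21446 genes that the 3 libraries share. They were followed in mouse molar cells sorted for a reporter of Pthrp, parathyroid hormone-related protein, whose gene is Pthlh. All 3 groups carried the Pthrp-mCherry knock-in allele on a C57BL/6 background, and mCherry+ cells were sorted from enzymatically dissociated mandibular molars of mice of both sexes and pooled into 1 library for each of 3 ages (P15, P25, 8 weeks). The sort therefore holds cells that transcribe the Pthrp locus or still contain mCherry, and animals cannot be told apart within a library. No agent was given to any group, and a further library at P6 is not analysed here.

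In the embryonic lower jaw, neural crest mesenchyme learns its position from signals in the overlying epithelium. Endothelin-1, received by the receptor Ednra, acts with the Dlx5 and Dlx6 homeobox factors to switch on Hand2, a basic helix-loop-helix factor of the distal (midline) mandibular arch, and its relative Hand1. Alx1 and Alx4 are aristaless-like homeobox factors of frontonasal and distal mandibular mesenchyme. Lhx6 and Lhx8 are LIM homeobox factors of the tooth-bearing oral mesenchyme, Barx1 is a homeobox factor of the proximal, molar-forming mesenchyme, and Pitx1 is a homeobox factor of mandibular arch mesenchyme and of oral epithelium. In the embryo, Barx1 and Hand2 occupy opposite ends of the lower jaw.

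The libraries held 27089 cells, of which 23607 had 0 unique molecular identifiers (UMIs, counted RNA molecules) of Ptprc, the pan-leukocyte CD45 gene, and of Epcam, an epithelial adhesion gene. These cells are called mesenchymal below. They numbered 10667 at P15, 7879 at P25 and 5061 at 8 weeks, with medians of 14254, 15256 and 8611 UMIs per cell. They were divided by 5 genes: Ibsp (bone sialoprotein, of mineralising cells, at least 20 UMIs), Ifitm5 (of osteoblast-like cells), Nts (neurotensin), Rgs5 (of mural cells) and Pappa2 (a pregnancy-associated plasma protein A family protease), each of the last 4 at no fewer than 5 UMIs. A cell entered the gate of 1 gene when the others were under their minimum, except that Ifitm5 cells could hold any amount of Ibsp, and cells with both Ibsp and Nts formed a gate of their own. Cells with Ibsp and Nts numbered 51 at P15, 1054 at P25 and 717 at 8 weeks, which was 0.478%, 13.4% and 14.2% of mesenchymal cells. Cells with Nts alone numbered 403, 486 and 332, and cells with Ibsp alone 1232, 697 and 501. The Ifitm5 gate held 479, 686 and 198 cells, the Rgs5 gate 233, 33 and 44, and the Pappa2 gate 306 cells at P15 but 9 and 2 later.

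The label was checked on Pthlh itself, which was present at 157.8, 214.1 and 233.2 CPM (its UMIs per 1000000 UMIs of the sum) in mesenchymal cells at P15, P25 and 8 weeks. It was highest in the Ibsp gate, at 435.3, 339 and 448.2 CPM, and lower in the Nts gate, at 30.94, 68.76 and 61.59 CPM. The summed level of 4 genes that the study uses for periapical cells (Tnn, Csrp2, Lrrc17 and Cald1) was 2751, 5618 and 7729 CPM in the Nts gate. It was 3303, 3904 and 5013 CPM in cells with Ibsp and Nts and 1523, 1895 and 2497 CPM in the Ibsp gate. The Rgs5 gate had 1879, 979 and 1346 CPM, the Pappa2 gate 1857 CPM at P15, and the Ifitm5 gate 871, 618 and 779 CPM. That periapical list in the study also holds Hand2, Alx1 and Nts and was drawn from these libraries, so the presence of these members beside Nts is not independent of it. The summed level of 7 mural genes (Notch3, Pdgfrb, Abcc9, Kcnj8, Cspg4, Mcam and Acta2) was 2974, 620 and 572 CPM in the Rgs5 gate. This was the highest of the gates at each age. Rgs5 itself was at 6614, 863 and 523 CPM there, so the few later cells cannot be taken as the same kind as at P15. Cells without a gate also held epithelial marker RNA (913, 926 and 273 CPM summed over 6 genes) and erythroid RNA (6705, 5371 and 1061 CPM summed over 3 genes). Leaving out cells with any UMI of Krt5, Trp63, Tyrobp, Cdh5 or Alas2, a choice made after the values were seen, kept 5124, 5021 and 4529 mesenchymal cells and brought these sums in cells without a gate to 168.4, 103.4 and 29.81 CPM and to 155.4, 51.25 and 57.74 CPM. The libraries shared between 13 and 26 cell barcodes per pair. The P25 library was made with an earlier program version and a larger gene reference, which cannot be told apart from the age.

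The members lie on 6 chromosomes. In GRCm38 coordinates with GENCODE gene models, Hand2 is at chr8:57320983-57324633 (+), Hand1 at chr11:57828705-57832818 (-), Alx1 at chr10:102998707-103030215 (-) and Alx4 at chr2:93642384-93681339 (+). Lhx6 is at chr2:36081953-36105408 (-), Lhx8 at chr3:154306294-154330659 (-), Barx1 at chr13:48662998-48666507 (+) and Pitx1 at chr13:55825051-55836192 (-). Nts, the gate gene, is at chr10:102481756-102490486 (-), 508221 bases from Alx1 on the same chromosome. The promoter of Hand2 is shown because this gene carries the main contrast and its promoter holds the palindrome TAATTA, the core that paired and LIM homeobox factors such as the Alx and Lhx members are known to bind. The stretch below is from RefSeq (GRCm38.p6), chr8:57320799-57320822, plus strand, and the capitals mark the palindrome, which begins 175 bases before the transcription start.
Hand2 promoter: cccccgtttTAATTAtcttatggt
Among 32851 mouse promoters of 300 bases, 5.29% hold TAATTA, which reads the same on both strands. The promoter entries of Lhx6, Lhx8 and Barx1 held no match, and no sequence is given for Hand1, Alx1, Alx4 and Pitx1. A match is a description of the letters and not evidence of binding.

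Across all mesenchymal cells the members differed in opposite directions between the ages. Hand2 was at 13.8, 41.2 and 80.0 CPM from the youngest to the oldest library, and Alx1 was at 6.43, 27.2 and 44.0 CPM. Alx4, a paralogue of Alx1, was at 2.96, 5.34 and 7.82 CPM. These genes were lowest at P15 and highest at 8 weeks. Barx1 was the most abundant member by counted molecules at every age, at 345, 265 and 261 CPM. Pitx1 was at 29.3, 15.8 and 13.99 CPM and Lhx6 at 14.03, 8.16 and 6.595 CPM. Lhx8, in contrast to its paralogue Lhx6, was nearly level at 27.0, 28.4 and 23.7 CPM. Hand1 was near the limit of detection, with 1, 38 and 14 UMIs in 1, 28 and 11 mesenchymal cells.

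With 1 library per age there is no test between ages, and intervals (95%, exact, from the counts) cover counting error only. The level at 8 weeks over that at P15 was 5.79 for Hand2 (5.48 to 6.12), 6.84 for Alx1 (6.33 to 7.39) and 2.64 for Alx4 (2.29 to 3.05). The same ratio was 0.470 for Lhx6 (0.414 to 0.532), 0.477 for Pitx1 (0.438 to 0.519), 0.756 for Barx1 (0.741 to 0.772) and 0.880 for Lhx8 (0.821 to 0.942). By these values 4 of the 8 members were lower at 8 weeks than at P15. The median gene differed by -0.01 (log2) between these ages, so this count is not read as a result about the members. In the cells without other lineages' marker UMIs, Pitx1 was at 16.23, 10.8 and 11.98 CPM, a ratio of 0.738 (0.662 to 0.823) between 8 weeks and P15, which moved this ratio by more than 1.5 times. From P25 to 8 weeks Pitx1 was then level within counting error (1.11, 0.988 to 1.24). From P25 to 8 weeks Barx1, scaled by total counts, was level within counting error (ratio 0.986, 0.966 to 1.01). Hand2 was higher at 8 weeks (ratio 1.94, 1.86 to 2.03). On this scale the median gene differed by -0.16 (log2) between P25 and P15, by 0.14 between 8 weeks and P25 and by -0.01 between 8 weeks and P15. With TMM scaling Barx1 was at 287.9 CPM at P25 and 254.3 CPM at 8 weeks, so whether it was level depends on the scaling. In these sums, more cells of a kind and more RNA per cell cannot be told apart.

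The RNA of the distal factors was divided unevenly among the gates. In the Nts gate Hand2 was at 168, 155 and 240 CPM at P15, P25 and 8 weeks, and in cells with both Ibsp and Nts at 238, 198 and 254 CPM. Its level in Nts-positive cells was thus as high at P15 as at P25, although such cells were fewer at P15. Of all mesenchymal Hand2 UMIs, the Nts gate held 69.2%, 27.2% and 26.0%, and cells with Ibsp and Nts held 11.7%, 61.5% and 54.9%. Alx1 was divided in almost the same proportions, with 66.4%, 29.4% and 29.2% in the Nts gate and 15.5%, 61.7% and 55.1% in cells with both. Most molecules of these distal factors were therefore in Nts-only cells at P15 and in cells with Ibsp and Nts later. Alx1 itself stood at 75.1, 111 and 148 CPM in the Nts gate and at 147, 131 and 140 CPM in cells with Ibsp and Nts. Alx4 stood lower, at 11.1, 16.9 and 19.9 CPM in the Nts gate and at 18.6, 18.8 and 21.4 CPM in cells with Ibsp and Nts.

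Outside the gates with Nts or Ibsp, Hand2 was near background at P15 and P25. Hand2 in the Ifitm5 gate was at 2.58, 0.791 and 3.44 CPM, and in cells without a gate at 2.19, 3.36 and 7.05 CPM. Cells with at least 2 Ptprc UMIs, which as leukocytes should lack Hand2, had 1.952 and 5.002 CPM at P15 and P25. At 8 weeks this background held 19 cells and no Hand2 UMI. The share of cells with a Hand2 UMI was 88.2%, 87.6% and 85.5% in cells with Ibsp and Nts (median 18016, 14293 and 9958 UMIs), against 0.867%, 4.61% and 0 of 19 in the leukocytes (median 10807, 16228 and 11056 UMIs). In the Nts gate the share was 49.6%, 72.6% and 80.4% (median 19749, 17829.5 and 10875 UMIs). Median depth was lowest at 8 weeks, where the share in the Nts gate was highest. The gate minimum is a raw count, and Nts itself was at 870, 1318 and 1500 CPM in this gate. The part of depth in these shares was not tested.

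**Figure D1:**
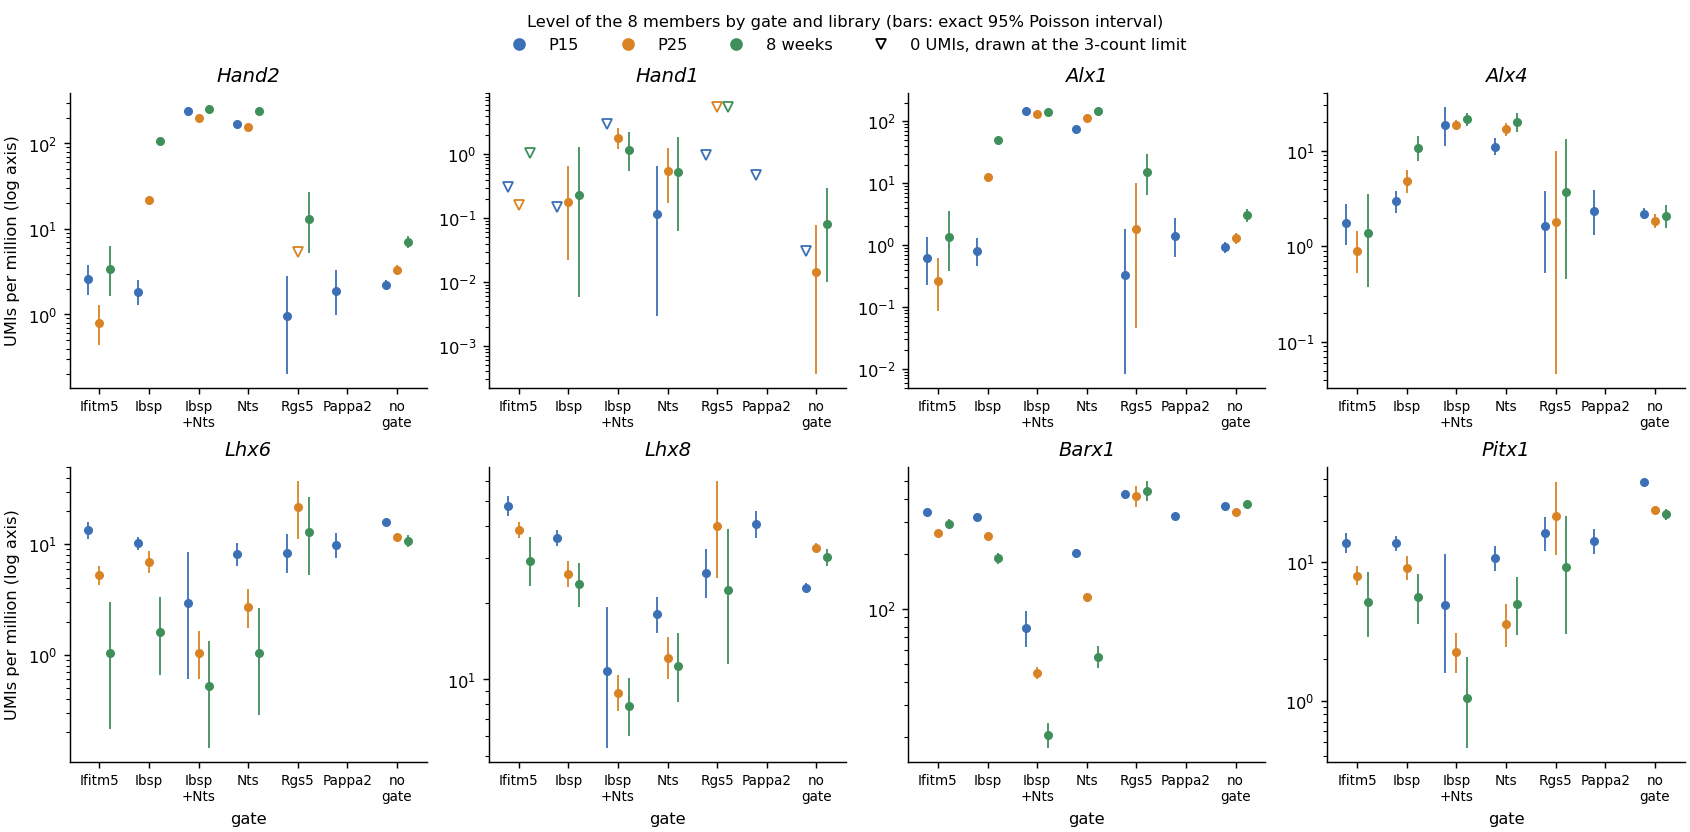
Level of each member (CPM, logarithmic axis) in mesenchymal cells divided by gate genes, with 1 point per library (P15, P25, 8 weeks) and bars for exact 95% counting intervals; open triangles mark 0 UMIs and stand at the 3-count limit. Hand2, Alx1 and Alx4 stand highest in the 2 gates with Nts, where Barx1 and Lhx8 stand low. Lhx6 and Pitx1 stand low in cells with Ibsp and Nts. In the Nts gate they come close to other gates at some ages. Pitx1 at 8 weeks is at 4.98 CPM there, against 5.57 in the Ibsp gate, and Lhx6 at P15 at 8.17, against 8.41 in the Rgs5 gate.

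Barx1, the proximal factor, had the opposite distribution. It was at 317, 251 and 189 CPM in the Ibsp gate, 337, 261 and 291 CPM in the Ifitm5 gate and 423, 414 and 443 CPM in the Rgs5 gate. In the Pappa2 gate at P15 it was at 322 CPM. Cells without a gate held 367, 340 and 373 CPM, and 69.8%, 70.2% and 79.8% of all mesenchymal Barx1 UMIs. It was low where Nts and Ibsp met, at 78.4, 44.8 and 20.5 CPM, and intermediate in the Nts gate at 203, 116 and 54.5 CPM. In every library Barx1 was lower in the Nts gate than in each of the Ibsp, Ifitm5 and Rgs5 gates, and lower again in cells with Ibsp and Nts. Leukocytes held 73.5 and 39.8 CPM of Barx1 at P15 and P25, so the levels in cells with Ibsp and Nts at those ages were about those of this background. Shares point the same way: a Barx1 UMI was found in 33.3%, 14.3% and 10.2% of cells with Ibsp and Nts and in 75.0%, 68.6% and 55.9% of all mesenchymal cells, against 23.7%, 18.9% and 0 of 19 leukocytes.

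The LIM factors and Pitx1 were also lower in cells with Ibsp and Nts than in cells with Ibsp alone. Lhx8 was at 35.9, 26.0 and 23.7 CPM in the Ibsp gate, at 18.0, 12.2 and 11.3 CPM in the Nts gate and at 10.8, 8.88 and 7.88 CPM where both markers met. In the Ifitm5 gate it was at 48.0, 38.5 and 29.2 CPM, close at the later ages to the 39.8 CPM of the Rgs5 gate at P25 and the 30.1 CPM of cells without a gate at 8 weeks. Lhx6 was at 10.3, 6.95 and 1.63 CPM in the Ibsp gate and at 2.94, 1.03 and 0.525 CPM in cells with Ibsp and Nts. Cells without a gate kept more Lhx6, at 16.0, 11.6 and 10.8 CPM. Pitx1 was at 13.7, 9.11 and 5.57 CPM in the Ibsp gate and at 4.90, 2.25 and 1.05 CPM in cells with Ibsp and Nts. Cells without a gate had more Pitx1, at 37.7, 23.9 and 22.2 CPM, and epithelial marker RNA was also present there. At P15 and P25 leukocytes held 3.347 and 2.251 CPM of Lhx6, 9.86 and 4.001 CPM of Pitx1 and 5.95 and 5.502 CPM of Lhx8. In cells with Ibsp and Nts, Lhx6 and Pitx1 were below this background at these ages, so no expression is read from them there. Lhx8 was above it. In the Ibsp gate Lhx6 and Pitx1 were above it too, with Pitx1 at P15 at 13.7 against 9.86 CPM. Hand1 had 30 and 9 UMIs in cells with Ibsp and Nts at P25 and 8 weeks (1.83 and 1.18 CPM) and 0 UMIs at P15, where 3 counts would be 2.94 CPM.

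The gates were compared on UMIs summed per library and gate (19 sums of at least 20 cells), with edgeR's quasi-likelihood test over 13967 genes and Benjamini-Hochberg adjustment. Each gate was set against the mean of the other 4 single-gene gates, and a gene was called at an adjusted p under 0.05. For gates other than Pappa2 this mean includes the Pappa2 gate, which had a sum only at P15. The mean thus weights P15 more than the later ages, and gate and age are partly mixed in these contrasts. With Pappa2 left out of the mean, 798 genes in place of 470 were called in the Nts gate. Libraries are the replicates here and this fit has no library term, so the spread between them includes the age. In the Nts gate, 3 of the 8 members were higher, where 1.81% of all tested genes were, and 2 were lower, where 1.55% were. Hand2 was higher by 5.33 on the log2 scale (SE 0.88, adjusted p = 0.00401), Alx1 by 5.39 (SE 0.88, adjusted p = 0.00365) and Alx4 by 2.65 (SE 0.30, adjusted p = 0.000256). Lhx8 was lower, with a log2 difference of -1.33 (SE 0.23, adjusted p = 0.00365), and Barx1 likewise, with -1.40 (SE 0.36, adjusted p = 0.0484). Lhx6 (-1.13, adjusted p = 0.461) and Pitx1 (-0.93, adjusted p = 0.265) did not pass. Hand1, tested on 8 UMIs in this gate over the libraries, did not pass (adjusted p = 0.205). The median log2 difference of the members was 0.863, between 4 members above 0 and 4 below, against 0.020 over all tested genes.

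These calls rest on 3 libraries. Without the P25 library none of the 5 passed, with adjusted p of 0.12 for Hand2, 0.151 for Alx1, 0.0817 for Alx4, 0.168 for Lhx8 and 0.511 for Barx1, although the Hand2 and Alx1 differences stayed at 5.12 and 5.12. Without the 8 week library Lhx8 (0.0675) and Barx1 (0.0756) did not pass. Over 16 alternatives the Hand2 difference ranged from 4.47 to 7.59 (adjusted p 6.78e-07 to 0.12), and the Barx1 difference from -2.10 to -0.996 (adjusted p 0.000401 to 0.511), with the Barx1 call lost in 8. With the library as a replicate block Pitx1 also passed (-0.82, adjusted p = 0.0339), so that 3 members were higher and 3 lower, where 6.52% and 5.59% of all genes were called.

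Cells with both Ibsp and Nts were set against cells with Ibsp alone, which asks how the members differ among cells that share high Ibsp. Alx4 was higher (log2 difference 1.73, SE 0.37, adjusted p = 0.0409), where 0.129% of all genes were called higher. Barx1 (-2.49, SE 0.44, adjusted p = 0.0171) and Lhx8 (-1.71, SE 0.27, adjusted p = 0.0102) were lower, where 0.644% of all genes were called lower. Hand2 (2.44, SE 0.93, adjusted p = 0.346) and Alx1 (2.83, SE 0.93, adjusted p = 0.247) did not pass, nor did Pitx1 (-2.23, adjusted p = 0.0761) and Lhx6 (-2.69, adjusted p = 0.261). The median of the members was 0.009, against -0.023 over all genes. With the library as a block, Hand2 (3.10, SE 0.78, adjusted p = 0.0448), Alx1 (3.43, SE 0.72, adjusted p = 0.0203) and Pitx1 (-2.06, SE 0.32, adjusted p = 0.00241) passed as well. The block thus gave 3 members higher and 3 lower, where 1.68% and 3.21% of all genes were called. Without the P25 library the adjusted p were 0.762 for Alx4, 0.617 for Barx1 and 0.409 for Lhx8. Without P15 Alx4 was at 0.0819, and without the 8 week library Alx4 was at 0.168 and Lhx8 at 0.197. Over the 15 alternatives the adjusted p ran from 0.00223 to 0.762 for Alx4, from 3.89e-06 to 0.617 for Barx1 and from 3.28e-06 to 0.409 for Lhx8.

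The Hand2 level of the Ibsp gate differed more between libraries than that of any Nts-positive gate. It was 1.85, 21.7 and 107 CPM at P15, P25 and 8 weeks, and Alx1 was at 0.802, 12.4 and 49.0 CPM. Nts itself, kept under 5 UMIs by the gate, was at 4.21, 35.6 and 138 CPM there. The gate was therefore divided by Nts, a division chosen after these values were seen. Ibsp cells with 0 Nts UMIs (1172, 544 and 278 cells) held Hand2 at 0.373, 1.03 and 19.3 CPM, Alx1 at 0.373, 1.03 and 6.96 CPM and Barx1 at 316, 274 and 301 CPM. Ibsp cells with 1 to 4 Nts UMIs (60, 153 and 223 cells) held Hand2 at 25.5, 99.9 and 222 CPM, Alx1 at 7.66, 55.4 and 104 CPM and Barx1 at 323, 162 and 43.9 CPM. At 8 weeks, cells with Ibsp and a little Nts thus lay between the other Ibsp cells and cells with Ibsp and Nts. The latter had Hand2 at 254, Alx1 at 140 and Barx1 at 20.5 CPM. For each of these genes they were closer to cells with Ibsp and Nts than to Ibsp cells with 0 Nts UMIs. Cells of the Ibsp gate were also shallower at 8 weeks (median 8438 UMIs, against 14958.5 and 14214 earlier), and the part of depth in this difference was not tested.

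Among all mesenchymal cells, Hand2 was higher in cells with more Nts UMIs, up to at least the third of 5 bins in each library. For cells with 0, 1 to 4, 5 to 9, 10 to 19 and at least 20 Nts UMIs, Hand2 was at 1.05, 9.05, 45.6, 154 and 293 CPM at P15. At P25 it was at 1.5, 25.8, 124, 176 and 201 CPM, and at 8 weeks at 5.64, 96.5, 246, 257 and 241 CPM. From the third bin on it differed little at 8 weeks, while at P15 each bin was higher than the one before. Barx1 over the same bins was at 351, 391, 321, 211 and 81.6 CPM at P15, at 319, 288, 127, 69.8 and 59.8 CPM at P25 and at 364, 225, 36.0, 23.6 and 41.2 CPM at 8 weeks. So at 5 to 9 Nts UMIs Barx1 was still near its level in Nts-negative cells at P15 and far below it at 8 weeks. The bins are raw counts, and by median UMIs the cells of this bin were deeper at P15 than at 8 weeks. The same count was thus a smaller share of the RNA of a P15 cell, and the bins are not matched between these ages. The part of depth in these differences between ages was not tested. Over 5 bins of Ibsp, from under 5 to at least 300 UMIs, Hand2 was at 14.5, 16.3, 13.7, 8.69 and 9.47 CPM at P15, at 13.8, 74.6, 89.7, 78.1 and 78.4 CPM at P25 and at 21.7, 150, 182, 161 and 147 CPM at 8 weeks. It was thus higher in cells with Ibsp at the later ages and not at P15.

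**Figure D2:**
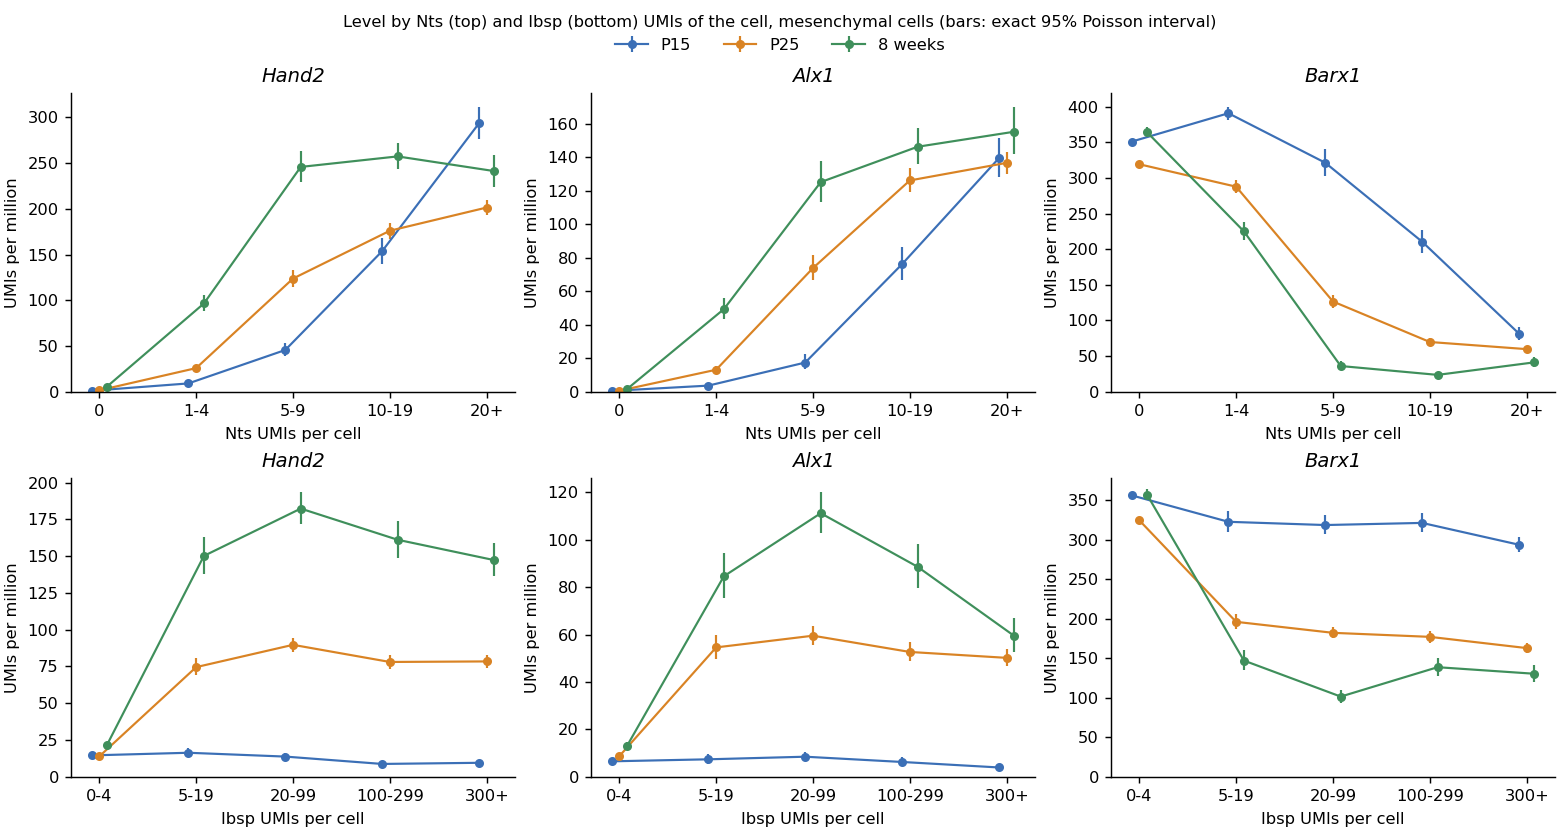
Hand2, Alx1 and Barx1 levels (CPM, linear axis) in mesenchymal cells binned by UMIs of Nts and by UMIs of Ibsp, with 1 line per library and exact 95% counting intervals. At P15 Hand2 goes from 1.05 CPM in cells without Nts to 293 CPM at 20 or more Nts UMIs, and Barx1 from 351 to 81.6 CPM.

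Among the other gates few members stood apart. In the Ifitm5 gate Alx4 was lower (-1.57, SE 0.39, adjusted p = 0.0117), where 6.06% of all genes were called lower, and Lhx8 was higher (0.81, SE 0.20, adjusted p = 0.0125), where 8.38% were called higher. Alx4 was at 1.75, 0.897 and 1.37 CPM there, near the 2.20, 1.85 and 2.08 CPM of cells without a gate. Leukocytes held 0.837 and 1.25 CPM of Alx4 at P15 and P25. The comparison mean includes the Nts gate, where Alx4 was at 11.1, 16.9 and 19.9 CPM. The Alx4 call was lost without P25 (adjusted p = 0.28) and without 8 weeks (0.0533), and the Lhx8 call without P25 (0.166), within ranges of 0.000728 to 0.28 and 0.00194 to 0.166 over 16 alternatives. Alx1 (-3.95, SE 1.36, adjusted p = 0.0683) and Hand2 (-2.68, SE 1.15, adjusted p = 0.144) missed the threshold in this gate. Without the P15 library both passed there (Alx1 -5.74, adjusted p = 0.0103 and Hand2 -4.61, adjusted p = 0.0426). In the Ibsp gate 0 members were called, where 1.27% of all genes were higher and 0.208% lower, and Hand2 was at 2.67 (SE 0.84, adjusted p = 0.177). In the Rgs5 gate 0 members were called as well, where 6.62% and 3.91% of all genes were, with Barx1 at 0.69 (SE 0.33, adjusted p = 0.22). The Pappa2 gate had a sum only at P15, which is assumed to vary like the other gates, so the gate and the age cannot be told apart. In that contrast 0 members were called, where 0.838% of all genes were higher and 0.0573% lower, and nothing is read from it.

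Mutual exclusion was examined cell by cell, after each cell was thinned to 3000 UMIs so that depth was equal. This left 9071, 7188 and 4110 cells at P15, P25 and 8 weeks, since 3238 shallower mesenchymal cells were left out. Hand2 and Barx1 UMIs occurred together in 19, 27 and 28 cells, where 99.8, 318 and 308 would be found if they were independent, an odds ratio of 0.0906, 0.0408 and 0.0379. Alx1 and Barx1 met in 6, 23 and 15 cells against 67.3, 240 and 192, an odds ratio of 0.0424, 0.0488 and 0.0376. Alx4 and Barx1 had odds ratios of 0.272, 0.127 and 0.122. Cells that held a distal factor were thus short of Barx1 at all 3 ages. Cells of a library share their source, so these ratios are descriptions and have no p.

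The distal factors, in turn, were found together. Hand2 and Alx1 met in 58, 233 and 217 cells, against 2.28, 51.0 and 69.5 if independent, an odds ratio of 72.7, 10.6 and 7.42. Odds ratios were 14.9, 5.95 and 4.79 for Hand2 with Alx4 and 17.3, 5.55 and 4.10 for Alx1 with Alx4. These ratios were lower at the later ages, when a larger share of cells held Hand2. Hand2 was also seldom seen with Pitx1 (0.174, 0.191 and 0.109), Lhx6 (0.327, 0.144 and 0.152) and Lhx8 (0.465, 0.276 and 0.417). Barx1 accompanied Lhx6 (1.62, 1.96 and 2.37) and, less, Lhx8 (1.09, 1.47 and 1.90). With Pitx1 it moved from 0.498 at P15 through 0.929 to 1.86 at 8 weeks. Mesenchymal cells also held epithelial marker RNA, which summed over 6 genes to 690, 560 and 169 CPM by age. Pitx1 was far higher in cells with at least 2 Epcam UMIs than in mesenchymal cells. How much of the course of this odds ratio came from epithelial RNA was not tested. Of the 28 pairs, 14 were under 1 in all 3 libraries, as were 13 of the 21 pairs without Hand1, whose pairs rest on 0 to 5 cells. Pairs of other genes were not examined, so this count has no background share beside it. It is not read as a trait of the members. Of those 21 pairs, 5 were over 1 in all 3 libraries, against 9 without thinning and 7 when at least 2 UMIs were asked for.

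Odds ratios under 1 were also found inside narrower sets of cells, but for fewer pairs. Of the 28 pairs, 7 were under 1 in all 3 libraries in cells without a gate and 6 in Ibsp cells with or without Nts. In all mesenchymal cells there were 14. Among cells without any gate, the Hand2 and Barx1 odds ratio was 0.267, 0.122 and 0.205, and that of Hand2 and Alx1 was 76.8, 127 and 27.1. These rest on few cells: 32, 43 and 35 held Hand2 or Alx1 without Barx1, and 10, 11 and 13 held both. Hand2 and Alx1 were at or near the leukocyte background in cells without a gate at P15 and P25. No exclusion is therefore read from this set. Among Ibsp cells with or without Nts, Hand2 and Barx1 had 0.133, 0.0620 and 0.111, and Alx1 and Barx1 had 0.0506, 0.120 and 0.155. Binning unthinned mesenchymal cells by Hand2 gave values in the same direction. From 0 Hand2 UMIs to at least 6, Barx1 went from 358 to 40.9 CPM at P15, from 315 to 37.7 at P25 and from 350 to 8.17 at 8 weeks. Alx1 went from 0.356 to 153, from 2.76 to 144 and from 6.76 to 167 CPM over the same bins.

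**Figure D3:**
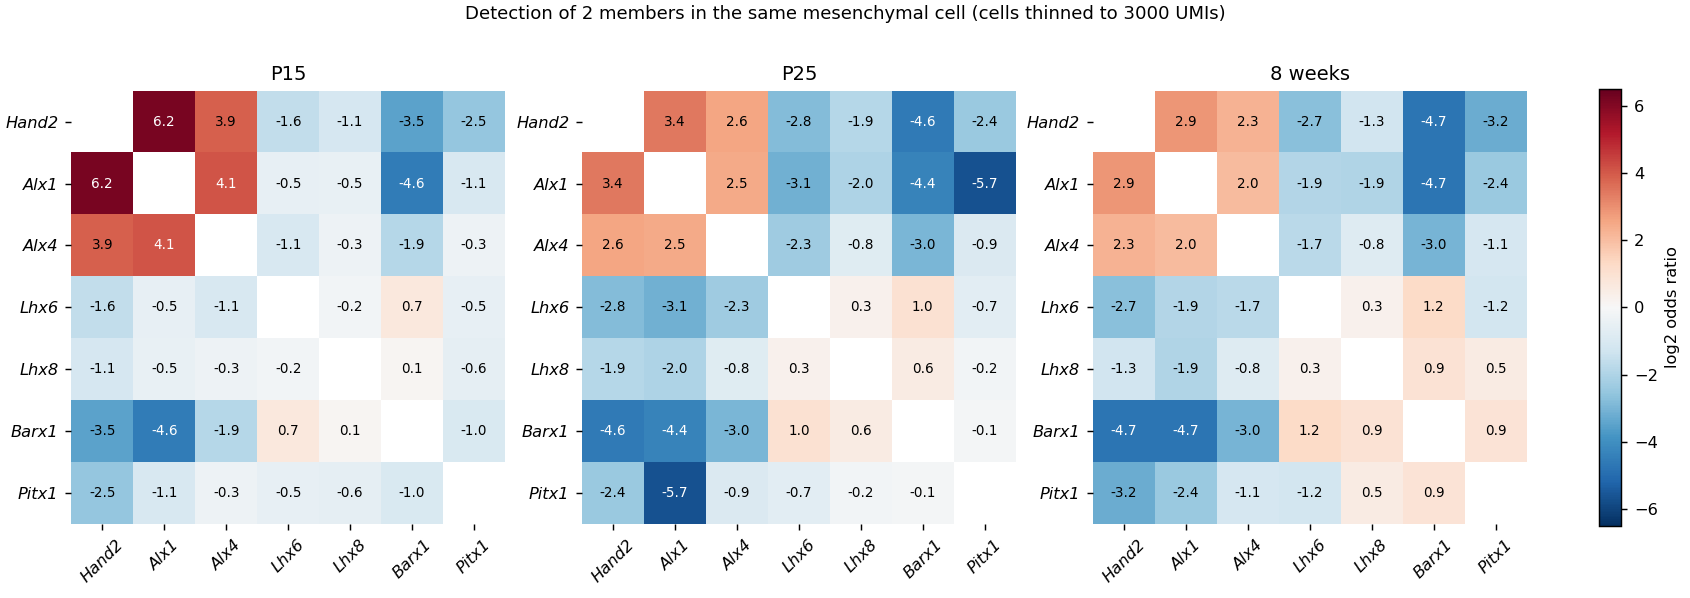
Heatmaps of the log2 odds ratio of finding UMIs of both genes in a mesenchymal cell thinned to 3000 UMIs, for the member pairs without Hand1, with 1 panel per library. Pairs among Hand2, Alx1 and Alx4 have positive values and their pairs with Barx1 negative values in all 3 libraries.

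Cells with high Ibsp and under 5 Ifitm5 UMIs differed between the libraries in which of these factors they held. Cells with high Ibsp and Ifitm5 were counted in the Ifitm5 gate. Of its 479, 686 and 198 cells, 149, 154 and 27 had under 20 Ibsp UMIs. The Ibsp shares below leave that gate out, so they are not shares of all cells with high Ibsp. Of cells with Ibsp, with or without Nts, 89.9% at P15 held Barx1 UMIs and none of Hand2 or Alx1, while the share was 30.2% at P25 and 18.2% at 8 weeks. Those with Hand2 or Alx1 and no Barx1 were 3.04%, 54.4% and 65.2%. Cells with both were 1.87%, 8.91% and 7.39%. With each cell thinned to 3000 UMIs the Barx1-only share was 56.7%, 19.1% and 12.9%. The share with a distal factor only was then 2.74%, 37.7% and 51.4%, in the same order of the ages. The gates were set on unthinned UMIs, so the cells were still chosen at unequal depth. The part of depth in these shares was not tested. In Ibsp cells under 5 Nts UMIs the Barx1-only share was 93.1%, 73.5% and 43.9%. The Ifitm5 gate showed little of this, with 96.7%, 95.6% and 90.4% of cells Barx1-only and 0.418%, 0 and 0% with a distal factor only (0 of 686 and 0 of 198 cells, with upper exact limits of 0.536% and 1.85%). These cells were deep, and at 3000 UMIs the Barx1-only share was 63.4%, 51.8% and 56.4%. The share with a distal factor only was then 0.209%, 0.438% and 1.02%. In the Nts gate Barx1-only cells went from 46.9% at P15 to 19.6% at P25 and 8.74% at 8 weeks, and those with a distal factor only from 38.5% to 67.3% and 80.4%. Nts-positive cells at P15 thus included many with Barx1. Whether cells changed their factors or other cells took their place cannot be told apart with 1 pooled library per age.

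**Figure D4:**
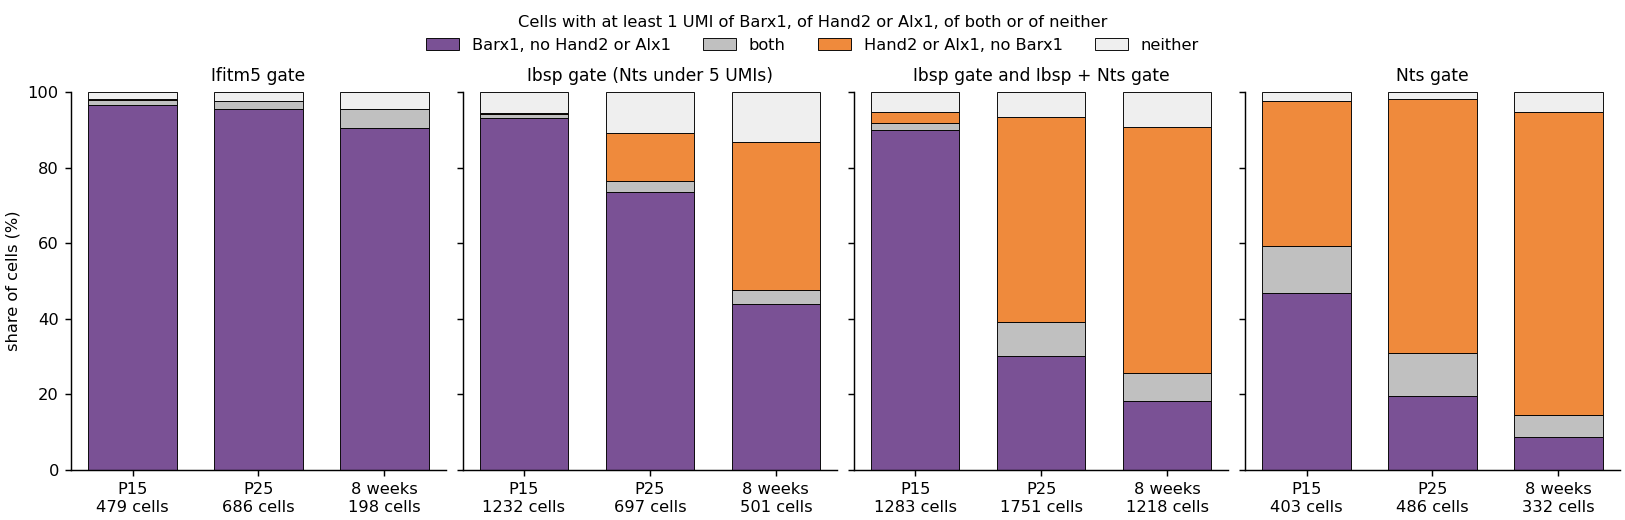
Percent of cells with UMIs of Hand2 or Alx1 but not Barx1, of Barx1 but not Hand2 or Alx1, of both and of neither, by library. Panels show the Ifitm5 gate, the Ibsp gate, cells with Ibsp with or without Nts, and the Nts gate. In cells with Ibsp outside the Ifitm5 gate, with or without Nts, the Barx1-only class is 89.9% at P15 and 18.2% at 8 weeks.

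Cells without a gate had another age course for some members. Hand2 and Alx1 were at or near the leukocyte background there (1.952 and 1.487 CPM in leukocytes at P15, 5.002 and 1.501 at P25), so no age course is read from them. The level at 8 weeks over that at P15 was 1.02 for Barx1 (0.994 to 1.04), 0.943 for Alx4 (0.681 to 1.29) and 1.31 for Lhx8 (1.21 to 1.43). Without cells holding other lineages' marker UMIs these were 0.937 (0.913 to 0.962), 0.856 (0.599 to 1.21) and 1.203 (1.09 to 1.33). Lhx6 was lower at 8 weeks in both (0.674 and 0.654), while Pitx1 went from 0.587 (0.536 to 0.643) to 0.979 (0.869 to 1.10), level within counting error. In the Ibsp gate the ratio was 0.598 for Barx1, 0.659 for Lhx8 and 0.406 for Pitx1, and in the Ifitm5 gate 0.864, 0.608 and 0.373, the same directions as in all mesenchymal cells. Within the Ibsp and Nts gate, Hand2 at 8 weeks over P15 was 1.07 (0.932 to 1.22), within counting error of no difference.

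The wider set of jaw regulators was examined by lists. Of the genes of the other 4 lists, 31 of the 33 further jaw and tooth regulators were tested and all of the rest. In the Nts gate 1 of 6 Dlx genes was higher and 0 lower, 0 of 7 endothelin genes higher and 1 lower, 0 of 4 upper jaw genes either way, and 3 of the 31 regulators higher and 4 lower. Their median log2 differences were 0.280, 0.208, -0.726 and -0.203, against 0.020 over all genes. Among those higher, Tfap2a, a neural crest factor of the AP-2 family, differed by 4.54 (SE 0.75, adjusted p = 0.00345). Foxd1, a forkhead factor, was higher by 1.90, and the Dlx gene was Dlx4 (0.81). Lower were Mef2c (-1.83), a factor downstream of endothelin signalling, Eya1 (-2.38), Tfap2b (-2.25), Six2 (-1.66) and Shox2 (-1.45). So Tfap2a and its paralogue Tfap2b were called in opposite directions in this gate. Of these 8 named genes, Mef2c alone passed without P25 (adjusted p = 0.0363) and Tfap2a alone without 8 weeks (0.0492), while Tfap2b (0.0561) and Foxd1 (0.0888) did not pass without P15. With the library as a block, 4 regulators were higher and 4 lower, and 1 upper jaw gene was lower.

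In cells with Ibsp and Nts against Ibsp alone, 4 of the 31 other regulators were lower and 0 higher, and no gene of the Dlx, endothelin and upper jaw lists was called. They were Eya1 (-4.11), Tfap2b (-2.98), Shox2 (-2.32) and Gsc (-2.49), goosecoid, a homeobox factor of the first arch. None of the 4 passed without P25 (adjusted p 0.524 to 0.693) or without 8 weeks (0.171 to 0.198), and without P15 Tfap2b (0.119) and Gsc (0.06) did not. With the library as a block, 2 regulators were higher and 9 lower, and 1 endothelin gene (Mef2c -1.11) and 2 upper jaw genes (Pou3f3 -3.26, Nr2f2 -1.39) were lower. Gsc was at 35.3, 29.8 and 19.7 CPM in the Ibsp gate and at 8.82, 5.84 and 2.89 CPM in cells with Ibsp and Nts. In the Ifitm5 gate the other regulators were 0 higher and 5 lower, among them Foxd1 (-2.17) and Prrx1 (-1.25). Of the endothelin list, 2 were higher (Mef2c 1.86, Gna11 0.57) and 2 lower (Ednra -1.85, Ece1 -0.68), and 1 of the Dlx list was higher (Dlx3 1.08). In the Rgs5 gate, whose mural gene level was far lower after P15, 2 endothelin genes were higher and 1 lower. They were the receptors Ednra (2.30) and Ednrb (11.97, 5.43 and 0 CPM, against 0 UMIs in the Ibsp gate) and Mef2c (-0.92). Of the upper jaw list, 3 of 4 were higher there (Nr2f2 2.65, Nr2f1 2.19, Jag1 2.16), as were Dlx5 (0.97) and Dlx6 (1.15) and 6 of the 31 regulators, with Foxc2 at 3.69 and 1 lower (Twist1 -0.73). In the Ibsp gate Mef2c (1.18, higher) was the 1 called gene of these lists. With the library as a block the regulators called were 2 higher and 9 lower in the Ifitm5 gate (all genes 15.6% and 12%), 3 and 1 in the Ibsp gate (3.06% and 1.17%) and 7 and 3 in the Rgs5 gate (9.71% and 8.93%). Without P25 the Rgs5 gate had 3 called regulators and 2 upper jaw genes, the Ifitm5 gate 1 endothelin gene and the Ibsp gate none of these lists. No Dlx gene was called in the Rgs5 gate without P25 or without 8 weeks. Edn1, the ligand of the axis, was low in all mesenchymal cells, at 0.9499, 0.241 and 2.75 CPM, and Dlx5 was at 127, 81.1 and 115 CPM.

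Hox genes, which first-arch mesenchyme lacks, gave a check of axial origin. The 39 Hox genes shared by the libraries summed to 1.51, 0.350 and 0.546 CPM in mesenchymal cells, and 24, 35 and 32 of them had 0 UMIs. This is below the level of each member except Hand1 in the same cells.

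Genes most like each member were found by Pearson correlation of log2(CPM + 10) over the 19 sums among 7045 genes, given as a description since the sums share libraries. For Hand2 they included Alx1 (0.993) and Rassf9 (0.959), and for Alx4 they included Alx1 (0.990) and Hand2 (0.982). For Barx1 they were Gsc (0.942), Six2 (0.919) and Slit3 (0.915). Lhx8 was nearest to Cd63 (0.947), Gadd45g (0.891) and Ppm1e (0.870), and Lhx6 to Col9a2 (0.885), Slc4a4 (0.881) and Pitx1 (0.877). Pitx1 was nearest to Lyz2 (0.880), a macrophage gene, then Slc4a4 (0.877) and Mab21l2 (0.856). The nearest genes of Hand2 and Alx4 thus included other distal members, and those of Barx1 included none of the members.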

How the data were processed

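Single cells were profiled with the 10x Chromium 3' v3.1 chemistry, and the authors deposited filtered UMI counts per gene and cell, made with Cell Ranger and the mm10 build per the labels (6.1.2; the P25 header names 6.0.1). Genes were joined by identifier. In P25, 95.2% of UMIs were in the shared genes, whose totals gave the CPM. The libraries held 188157997, 169712592 and 46234378 UMIs. The members and lists were chosen with earlier results of these data known. All members are given, and other named genes are the called genes of the lists with the largest or smallest values, and the 3 genes most like each member. Results of some genes under these rules are not reported here. Replicates were the libraries, 1 per age; P-values thus measure the spread between libraries. UMIs were summed per library and gate, leaving out the 5 gate genes, Ptprc and Epcam, and tested in 1 fit (edgeR 4.0.16, TMM, R 4.3.3) with DESeq2 1.42.0 as an alternative. Python 3.11.15 with numpy 2.4.6, scipy 1.17.1 and pandas 2.3.3 gave levels, exact Poisson and Clopper-Pearson intervals and odds ratios (0.5 added to each cell count). Gates of the same library come from the same pooled animals, and their deviations correlated in every pair (15 pairs each, lowest r 0.124, 0.222 and 0.154 by age), so the library pairs the sums. The main fit has no library term and does not use this pairing. The fit with the library as a replicate block does. The alternatives were the library as a replicate block, other gate minima, filters, normalisations and thinning depths, and leaving out each library. No doublet caller was run, and an alternative left out the 6% deepest cells. Each of the 6 contrasts was tested on simulated data. No deposited column was left unmapped (0).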

Additional observations from a re-analysis of the deposited data

Results flagged for a closer look

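Pitx1 was found in cells outside the mesenchymal comparisons. In cells with at least 2 Epcam UMIs (645, 590 and 66 cells), Pitx1 was at 398.9, 337.9 and 336.4 CPM by age (P15, P25, 8 weeks). In mesenchymal cells it was at 29.3, 15.8 and 13.99 CPM and in cells with at least 2 Ptprc UMIs at 9.86, 4.001 and 0 CPM. No group of the report uses these epithelial cells, and there is no test between ages.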

How the results depend on the processing

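None of the 16 member contrasts followed changed direction under the alternatives run. These were the contrasts called in the main fit or with the library as a block, and those of Hand2 and Alx1 in the Ibsp gate. Other member contrasts, such as those of Lhx6, were not followed in this way. With the library as a replicate block, the number of genes called went from 2017 to 3855 (Ifitm5), 206 to 592 (Ibsp), 470 to 1691 (Nts), 1471 to 2603 (Rgs5), 125 to 500 (Pappa2) and 108 to 683 (Ibsp and Nts against Ibsp); for the members the block added calls only in the 2 contrasts with Nts. DESeq2 called 354 (Ibsp), 805 (Nts), 228 (Pappa2) and 322 (Ibsp and Nts against Ibsp). Double the gate minimum gave 373, 992, 425 and 60 in the same order, and gates per 10000 UMIs gave 806 (Nts), 363 (Pappa2) and 243 (Ibsp and Nts against Ibsp). An Ifitm5 gate without Ibsp gave 321 (Ibsp) and 63 (Ibsp and Nts against Ibsp), gate minimums of 10 (Ibsp) and 3 UMIs 170 for the last, and leaving out the 6% deepest cells 219 (Pappa2). Averaging the other gates without Pappa2, an alternative chosen after seeing the data, gave 798 (Nts). Leaving out 1 library gave 420 to 1778 (Ifitm5), 9 to 136 (Ibsp), 20 to 697 (Nts), 280 to 1259 (Rgs5), 4 to 42 (Pappa2) and 0 to 108 (Ibsp and Nts against Ibsp). The lowest count was without P25 in each, and the count of 0 by edgeR left 771 genes at an unadjusted p under 0.05. Without P15 there was no Pappa2 sum, so that contrast could not be fitted and the others used 3 gates. The 14 pairs under an odds ratio of 1 were 7 in cells without a gate and, chosen after seeing the data, 6 in Ibsp cells; pairs over 1 without Hand1 went from 5 to 9 without thinning. In cells without a gate the ratio of 8 weeks to P15 changed side for Alx4 (0.943), Lhx8 (1.31) and Barx1 (1.02), and 3 members in place of 4 were lower; without cells holding UMIs of 5 markers of other cell types, chosen after seeing the data, the ratios there were 0.856 for Alx4 and 1.2 for Lhx8. The Lhx8 and Barx1 odds ratio at P15 was 0.848 in stricter mesenchymal cells and 0.803 in Ibsp cells, where that of Lhx6 and Barx1 at 8 weeks was 0.842. The cause of these changes was not tested. Of the single values, 358 were kept, 29 lost and 7 gained a call, 96 moved and 8 changed side. Kept means the same direction and call for a contrast, and a value inside the counting interval for an age ratio. For an odds ratio, which has no error here, it means the same side of 1 and a change of at most 1.5 times. With 1 library per age, no alternative gives a test between ages, and low members such as Hand1 cannot be compared at this depth.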

Other observations

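Alx1 and Nts are neighbours on chromosome 10, and the genes around them were looked up after the Nts contrast was seen. Rassf9, of the RASSF family, lies between them at chr10:102512222-102549736 (+), 448971 bases from Alx1. It was higher in the Nts gate by 4.49 on the log2 scale (edgeR quasi-likelihood test, SE 0.86, adjusted p = 0.00941), at 22.7, 35.0 and 54.0 CPM at P15, P25 and 8 weeks, against 0.401, 5.59 and 26.7 CPM in the Ibsp gate. The other coding genes within 1000000 bases of Alx1 were Lrriq1 (31, 23 and 8 UMIs in mesenchymal cells), Mgat4c (13, 2 and 7) and Slc6a15 (1021, 731 and 311). Hand2 and Alx4, on other chromosomes, were higher in the Nts gate as well.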
